A study of Mus musculus with 18 samples.

Results

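The cytosolic ribosome is built from a small and a large subunit, each an assembly of ribosomal RNA and many small basic proteins, and every protein a cell makes comes off it. Messenger RNAs for most of these proteins start with an uninterrupted run of pyrimidines, the 5′ terminal oligopyrimidine (TOP) motif, through which the growth-sensing kinase complex mTORC1 and the RNA-binding protein LARP1 control their translation and stability as a group. In T cells, ribosome production is known to increase with antigen-driven growth.

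The genes described here are the rows of the count table named as proteins of the 2 cytosolic subunits: Rps or Rpl with a number and at most a short suffix, plus Rpsa and the stalk proteins Rplp0, Rplp1 and Rplp2. The rule found 83 of the 23420 genes in the table, 32 of the small and 51 of the large subunit, and used no measured value. Of these, 80 passed the filter on low counts and were tested. Rpl39l, Rpl10l and Rpl3l, paralogs known from other tissues such as testis and striated muscle, did not, at a mean of 0.547, 0.0478 and 0.01 FPKM (a level normalised for transcript length and library depth).

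RNA was sequenced from sorted mouse regulatory T cells in 6 groups of 3 libraries. The labels give the genotypes FCre x C1fl/fl, FCre x C1fl/+ and FCre x C1+/+, called fl/fl, fl/+ and +/+ here, where fl marks a floxed C1 allele; all groups, +/+ included, carry FCre. Each genotype was sampled in the effector and the resting state, with replicate numbers 1 to 3 that the labels call batches. The promoter that drives Cre, the sorting gates, and the age, sex and strain of the mice are not stated in the labels. Nothing says that the libraries come from separate animals, so a p-value measures the spread between these samples, which may be technical.

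Library totals ran from 1658073 to 5756903 expected counts. Foxp3, the defining factor of the lineage, was present in every library at 211 to 479 CPM (counts scaled by library size). Markers of red cells summed to at most 1.45 CPM and of myeloid cells to at most 8.04 CPM, and 5 B cell markers to 19.4 to 161 CPM. The highest B cell sum was that of +/+ resting replicate 3. Markers of CD8 T and natural killer cells summed to 15.9 to 41.8 CPM, highest in fl/fl effector replicate 1. The sums were 27.0 ± 12.8 CPM in effector against 27.3 ± 6.77 CPM in resting fl/fl cells, 16.4 ± 0.744 against 23.8 ± 1.84 CPM in fl/+, and 19.0 ± 2.49 against 24.6 ± 3.18 CPM in +/+ (SD, n = 3 each). Of this list, Cd8b1 was called lower in effector cells of fl/+ (log2 change -0.77, edgeR adjusted p = 0.00727) and +/+ (-0.70, adjusted p = 0.0155), and in fl/fl its change was -0.48 (adjusted p = 0.148). The part of these markers in the results below was not tested.

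Ribosomal protein messages were among the most abundant in these cells. They made up 10.6 to 14.9% of the expected counts of a library, and 28.3 to 36.4% of the summed FPKM, which weights short transcripts more. The level per length spread widely within the set. Rps27 had the highest mean over the 18 libraries at 7545 FPKM, followed by the acidic stalk protein Rplp1 at 4877, Rps4x at 4769, Rps16 at 4455 and Rps14 at 4371 FPKM. Among the tested members, the row of Rpl34 was lowest at 28.3 FPKM, but a pseudogene row took nearly all counts of the pair (2633 FPKM), so this is not the level of the gene. Next came Rpl7l1 at 41.4, Rpl30 at 89.2, Rps27l at 112 and Rpl22 at 200 FPKM. The Rpl30 counts were not whole numbers in 18 of 18 libraries, as for many members. Its row may therefore not give the level of the gene, which was not tested. The ranges over libraries of Rps27 (5522 to 9333 FPKM) and Rplp1 (4266 to 5640 FPKM) overlapped, so the first places are not separated beyond the spread. Of each paralog pair in the set, the canonical gene had the higher level: Rps27 against Rps27l, Rpl7 against Rpl7l1, Rpl3 against Rpl3l, Rpl10 against Rpl10l and Rpl39 against Rpl39l. The exception was Rpl22, at 200 FPKM (174 to 233 over libraries) against 510 FPKM (352 to 625) for Rpl22l1. The latter is a paralog known to be restrained by Rpl22 in mouse cells. This exception holds in FPKM only. In CPM, which is not divided by transcript length, Rpl22 was the higher, at a mean of 390 against 194 CPM.

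Start-site sequence is shown for members whose changes are given below, some with and some without a run at the annotated start, because the TOP motif is the element these genes are known for. RefSeq promoters (GRCm38.p6) were matched by symbol for 63 of the 83 members. In the 40-base windows below the start site lies after the first 20 bases, the sense strand is given, and capitals mark a run that begins with C at the first transcribed base and goes on with at least 4 more bases that are each C or T.
Rps10, chr17:27635225-27635264, minus strand: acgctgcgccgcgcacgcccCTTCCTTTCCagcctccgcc
Rps6, chr4:86857348-86857387, minus strand: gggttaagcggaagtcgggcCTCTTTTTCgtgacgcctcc
Rpl35a, chr16:33056462-33056501, plus strand: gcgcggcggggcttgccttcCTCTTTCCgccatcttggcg
Rps27, chr3:90213629-90213668, minus strand: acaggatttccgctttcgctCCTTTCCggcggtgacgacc
Rplp2, chr7:141447631-141447670, plus strand: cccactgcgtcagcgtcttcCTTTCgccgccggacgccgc

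The windows of 3 members with some of the more negative changes in +/+ (Rps19, Rps24 and Rplp0) and of 3 that were uncalled there (Rps12, Rps27l and Rpl7l1) hold no such run at the annotated start.
Rps19, chr7:24884572-24884611, plus strand: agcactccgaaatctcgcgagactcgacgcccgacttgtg
Rps24, chr14:24490658-24490697, plus strand: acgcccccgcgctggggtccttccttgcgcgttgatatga
Rplp0, chr5:115559447-115559486, plus strand: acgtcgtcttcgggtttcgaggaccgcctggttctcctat
Rps12, chr10:23787190-23787229, minus strand: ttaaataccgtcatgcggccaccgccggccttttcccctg
Rps27l, chr9:66946066-66946105, plus strand: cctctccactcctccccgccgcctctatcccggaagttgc
Rpl7l1, chr17:46782637-46782676, minus strand: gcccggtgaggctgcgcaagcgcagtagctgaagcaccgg

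A run exactly at the annotated start was found, in at least 1 listed promoter, for 13 of the 63 members (20.6%) and for 813 of 27025 genes with a promoter (3.01%). A run of at least 8 bases, C followed by C or T, anywhere within 20 bases of the start on the sense strand was found for 30 members (47.6%) and for 14.5% of all genes. Annotated starts can lie some bases from the start used in these cells, and a window without the run says only that these letters are not at that position.

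In +/+ cells, ribosomal protein messages were lower in the effector than in the resting state as a block. Of the 80 tested members, 60 fell and none rose, and 79 of 80 had a log2 change below 0. Over all 10630 genes tested, 6.5% were called lower, 9.49% higher, and 51.4% were below 0. The median change of the members was -0.44, against -0.01 over all genes. Summed over the set, the members held 10.6, 11.0 and 11.6% of the expected counts in +/+ effector libraries, against 14.2, 14.9 and 12.8% in +/+ resting libraries, in the order of their numbers. No effector value reached the lowest resting value. Without overlap, effector was lower for 66 members and for 15.7% of all genes. The means were 11.1 ± 0.523% and 14.0 ± 1.07% (SD, n = 3 each). In bulk RNA, fewer cells of a type and less RNA per cell cannot be told apart, and a CPM is relative to the other messages of its library.

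**Figure D1:**
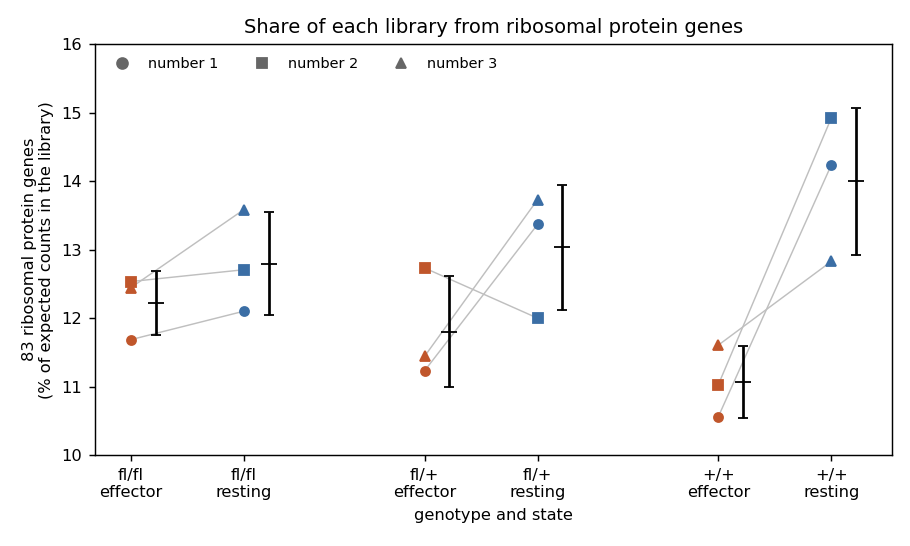
Expected counts of the 83 ribosomal protein genes as a percentage of the library total, on an axis that starts at 10%, for each of the 18 libraries. Point shapes mark the replicate number, grey lines join the effector and the resting library of one genotype and number, and black bars are means ± SD of 3 libraries. Effector libraries lie below resting ones without overlap in +/+, where the means are 11.1% and 14.0%, and overlap with them in fl/+ and fl/fl.

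Small subunit proteins led the ranking in +/+. Rps19, which is mutated in human Diamond-Blackfan anaemia, had 1342, 1447 and 1517 CPM in +/+ effector libraries, against 2367, 2461 and 1971 CPM in +/+ resting libraries. The states did not overlap, and the log2 change was -0.66 (SE 0.14, edgeR quasi-likelihood F test with Benjamini-Hochberg adjustment over all genes, adjusted p = 0.00225), 0.633 times the resting level. Rpl35a, a large subunit protein with a TOP motif at its start, had the smallest adjusted p of the set: 777, 854 and 846 CPM in effector libraries against 1278, 1269 and 1154 CPM in resting libraries, a log2 change of -0.58 (SE 0.09, edgeR adjusted p = 0.000231). Rps24, also a Diamond-Blackfan gene in humans, was at 1524, 1689 and 1665 CPM in effector libraries and at 2419, 2570 and 2190 CPM in resting libraries. Its effector libraries all lay below its resting ones.

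Other members high in the ranking were Rps20 (log2 change -0.57), Rps24 (-0.56), Rpl8 (-0.56), Rpl5 (-0.54) and Rpl12 (-0.53). At the other end of the called members stood Rpl24 (-0.31), Rpl7a (-0.32), Rpl22l1 (-0.32), Rpl28 (-0.34), Rpl27 (-0.34), Rpl11 (-0.35), Rpl27a (-0.35) and Rpl10 (-0.36). The called members thus lay between 0.633 and 0.809 times their resting level. Both subunits took part to a like extent, with 24 of 32 tested small subunit members called at a median of -0.46 and 36 of 48 large subunit members at a median of -0.41; the difference between the subunits was not tested. Without +/+ resting replicate 2 the count of called members was 39, and without +/+ resting replicate 3 it was 69. Over all genes, 525 of 10955 and 561 of 10940 were called lower in these fits, against 691 of 10630 with all libraries.

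Of members with known roles beside the core of translation, some were called and some were not. Rps6, the target of the S6 kinases downstream of mTORC1, was at 2003 ± 105 CPM in +/+ effector and 2741 ± 194 CPM in +/+ resting cells (SD, n = 3 each; log2 change -0.45, edgeR adjusted p = 0.00196). Rpl5 and Rpl11, which with 5S ribosomal RNA can bind the p53 inhibitor Mdm2, fell by 0.54 and 0.35 on the log2 scale. Rps3, at the messenger RNA entry channel (-0.46), Rps14, on the platform of the small subunit (-0.41), and Rps25, used in internal initiation (-0.46), fell too. Rpl38, required for translation of some Hox messages in mouse embryos, was not called, at 433 ± 47.2 CPM in effector and 524 ± 100 CPM in resting cells (edgeR adjusted p = 0.203).

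The stalk recruits the translational GTPases, and its 3 proteins gave unlike values. Rplp0, the stalk base, fell by 0.51 (edgeR adjusted p = 0.00158) and Rplp2 by 0.42 (adjusted p = 0.0344) on the log2 scale in +/+ cells. Rplp1 had 1484, 1774 and 1656 CPM in effector libraries and 1976, 2309 and 1726 CPM in resting libraries. The states overlapped, and the change of -0.29 was not called (edgeR adjusted p = 0.109).

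A few members stood apart from the block. Rps12, known for a role in cell competition in flies, was at 889, 997 and 1040 CPM in +/+ effector libraries and at 1086, 1195 and 883 CPM in +/+ resting libraries, with a log2 change of -0.11 (edgeR adjusted p = 0.512). In the other genotypes its effector libraries all lay above its resting ones: 1080, 1121 and 1104 against 927, 968 and 1040 CPM in fl/fl, and 1020, 1279 and 1088 against 973, 923 and 994 CPM in fl/+. Neither change was called (log2 change 0.17, edgeR adjusted p = 0.397, and 0.23, adjusted p = 0.143). The change in fl/+ crosses the threshold when libraries are scaled by their totals alone (0.32, edgeR adjusted p = 0.0172), and it is the only member called higher between states in that setting. Groups without overlap and with the effector state higher made up 11.7% of all genes in fl/fl and 18% in fl/+.

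Rpl7l1, a paralog of Rpl7 with a role in ribosome assembly, was the single tested member with a positive change in +/+, at 112, 108 and 113 CPM in effector and 93.1, 107 and 99.0 CPM in resting libraries. The effector values lay above the resting ones as they did for 16.6% of all genes, and the log2 change of 0.16 was not called (edgeR adjusted p = 0.399). Its canonical relative Rpl7 fell in the same libraries by 0.50 (SE 0.09, adjusted p = 0.00053). Rps27l, a p53 target in human cells, had a mean of 41.7 ± 3.93 CPM in effector and 41.6 ± 7.36 CPM in resting +/+ cells (SD, n = 3 each), with a 95% interval of its log2 change from -0.46 to 0.45. Rps27 was at -0.42 but spread widely and was not called (adjusted p = 0.0878). Rpsa, also known as a laminin receptor precursor, and Rps2 were at -0.23 each and not called.

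**Figure D2:**
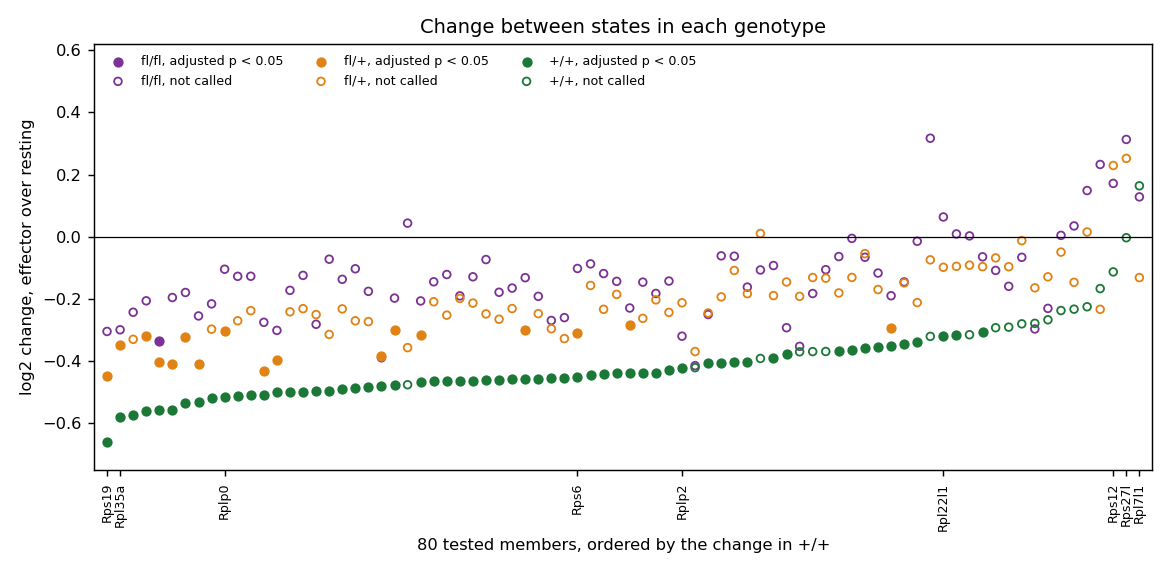
Log2 change of the 80 tested members from the 6-group edgeR model, effector over resting, for fl/fl, fl/+ and +/+, with members ordered by their change in +/+ and 9 of them labelled. Filled points passed an adjusted p of 0.05 and open points did not. The +/+ points lie lowest for 77 members, a count not made over all genes. Rps12, Rps27l and Rpl7l1 lie at the right end near or above 0.

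In fl/+ cells the changes had the same direction and a smaller median. There, 17 members fell, none rose, and 76 of 80 were below 0, with a median of -0.23 against -0.01 over all genes. Of all genes, 6.58% were called lower, 9.72% higher, and 50.9% were below 0. Effector was lower without overlap for 35 members and for 16.1% of all genes. All 17 were also among the 60 called in +/+. Among them were Rps19 (-0.45), Rps7 (-0.43), Rpl8 (-0.41), Rpl12 (-0.41), Rps24 (-0.40), Rps16 (-0.40), Rps29 (-0.38), Rpl35a (-0.35), Rpl5 (-0.32), Rps3a1 (-0.32), Rps6 (-0.31), Rplp0 (-0.30), Rps3 (-0.30), Rps10 (-0.30), Rpl11 (-0.29) and Rps23 (-0.28). With the replicate number as a block, 31 members were called, and with a block of genotype and number 29. Over all 10630 genes, 878 were called lower and 1161 higher with the first block, and 992 and 1273 with the second. Without a block these counts were 699 and 1033. The summed share was 11.2, 12.7 and 11.4% in fl/+ effector libraries and 13.4, 12 and 13.7% in fl/+ resting libraries. The pair of number 2 went the other way: 43 of 80 members were higher in its effector library, whereas 78 and 77 were lower in those of numbers 1 and 3. Without both libraries of number 2, an alternative chosen after seeing the data, 29 members were called and the median was -0.34. In that fit, 487 of all 10811 genes tested were called lower and 765 higher. Leaving out single fl/+ libraries gave 2 calls without effector replicate 1, 3 without effector replicate 3 or resting replicate 1, and 5 without resting replicate 3. Over all genes, 512 of 10744, 386 of 10737, 434 of 10756 and 543 of 10949 were called lower in these fits, in the same order.

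In fl/fl cells 1 member was called. Rps24 had 1672, 1949 and 1862 CPM in fl/fl effector libraries against 1991, 2361 and 2568 CPM in fl/fl resting libraries, without overlap, as for 9 members and 9.97% of all genes. Its log2 change was -0.34 (SE 0.10, edgeR adjusted p = 0.0462), and it was the one member called in all 3 genotypes. The call is lost with DESeq2's size factors in place of TMM (edgeR adjusted p = 0.0538), with library totals alone (0.0676), with TMM computed without the members (0.0552) and in each limma fit (0.0793 to 0.204). It is also lost without fl/fl effector replicate 1 (0.254) or 3 (0.108) and without fl/fl resting replicate 2 (0.163) or 3 (0.220). The members' median was -0.14 against -0.01 over all genes, 68 of 80 were below 0, and 20 had an unadjusted p under 0.05. These 20 are not calls, and the count over all genes at that threshold is not given beside them. Of all genes, 1.33% were called lower, 5.01% higher, and 51.8% were below 0. The members' summed share was 11.7, 12.5 and 12.4% in effector and 12.1, 12.7 and 13.6% in resting fl/fl libraries. Within each number the summed CPM was lower in effector, with differences of -8.75, -6.15 and -13.9%, and the groups overlapped. With the replicate block 6 members were called: those added were Rpl35a, Rps16, Rps21, Rps27 and Rps29. Of all 10630 genes, 240 were called lower and 596 higher with that block, against 141 and 533 without it.

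The change between states was most negative in +/+ for 77 of the 80 members, and 62 ran in the order +/+, fl/+, fl/fl from the most to the least negative. Neither count was made over all genes, so no share stands beside them. The members were measured in the same libraries and do not count as independent. Within the numbers the order +/+, fl/+, fl/fl held in number 1, with pair medians of -0.11 in fl/fl, -0.38 in fl/+ and -0.56 in +/+. In number 2 they were -0.09, 0.02 and -0.54, and in number 3 +/+ was the least negative, at -0.22 in fl/fl, -0.34 in fl/+ and -0.18 in +/+. These comparisons share no library, but the difference between them needs its own test. In that interaction, the change between states in fl/fl less that in +/+, 78 of 80 members were above 0 with a median of 0.29, against 50.6% of all genes above 0 and a median of 0.01. No member was called by edgeR, with or without a block, or by DESeq2 or limma. Of all genes 0 were called by edgeR in either direction without a block and with the filter on low counts, 953 having an unadjusted p under 0.05. With the replicate block 1 gene was called higher and 2 lower, with the block of genotype and number 29 and 91, without the filter 85 and 161, with DESeq2 6 and 9, and with limma on log2(FPKM + 1) 1 and 2. Of the members, 33 had an unadjusted p under 0.05. Rpl7 had the smallest adjusted p of the set with Rpl4 (0.397), at 0.37 with a 95% interval from 0.12 to 0.63. For Rps19 the interval ran from -0.05 to 0.76 and for Rps27 from -0.47 to 0.49. For fl/+ less +/+ the median was 0.21, 78 members were above 0, and none was called by edgeR, DESeq2 or limma. At an unadjusted p under 0.05 there were 3 members, with no count over all genes beside them. Of all genes, 50.2% were above 0, and 0.00941% were called in each direction. Both interactions share the +/+ libraries.

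**Figure D3:**
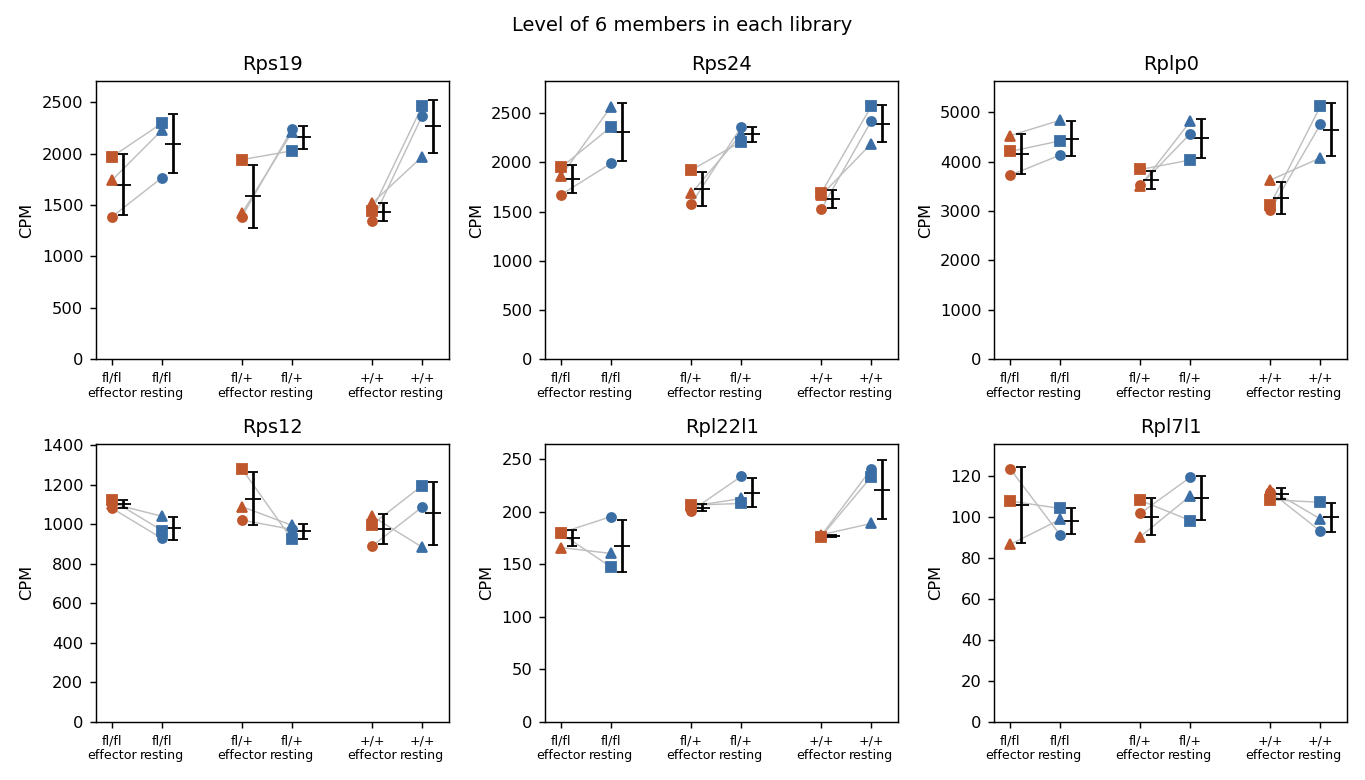
CPM of 6 members in each library, with groups as in the plot of shares, each axis starting at 0, and black bars giving means ± SD of 3 libraries. Rps19, Rps24 and Rplp0 show the gap between states in +/+ and its smaller size in fl/fl; Rps12 changed by -0.11 and Rpl7l1 by 0.16 on the log2 scale in +/+, both uncalled, and Rpl22l1 is at 177 CPM in +/+ effector cells against 221 CPM in +/+ resting cells.

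The same values can be read between genotypes within a state. In effector cells the members sat higher in fl/fl than in +/+ by a median of 0.16 on the log2 scale, against 0.01 over all genes, and 68 of 80 were above 0 where 51% of all genes were. None was called by edgeR (1.17% of all genes were called higher and 1.65% lower), and 18 had an unadjusted p under 0.05. These 18 are not calls, and the count over all genes at that threshold is not given beside them. DESeq2 called 2, where it called 198 of all 10629 genes tested higher and 257 lower. Rplp0 was highest, at 3729, 4210 and 4530 CPM in fl/fl effector libraries against 3014, 3133 and 3629 CPM in +/+ effector libraries. All fl/fl values lay above all +/+ values, with a log2 change of 0.35 (edgeR adjusted p = 0.0669, and 0.0427 with the replicate block). Rpl7 was similar, at 0.30 (adjusted p = 0.0673, and 0.0359 with the block). With that block, 244 of all 10630 genes were called higher and 308 lower. The 2 members called with it are near the share of all genes called higher. Without overlap, fl/fl was higher for 16 members, and 10.3% of all genes did so. Without fl/fl effector replicate 1, 6 members and 259 of all 10717 genes tested were called higher. That library had the lowest share of the group and the highest sum of CD8 T and natural killer cell markers (41.8 CPM). Without +/+ effector replicate 3, 1 member and 263 of all 10934 genes tested were called higher. That 1 member is below the share of all genes.

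Other members with a high fl/fl value in effector cells were Rpl26 (0.33), Rpl34 (0.32), Rps2 (0.28) and Rps4x (0.28), and the lowest were Rpl38 (-0.14), Rps27 (-0.09), Rps21 (-0.07), Rpl37a (-0.06) and Rpl7l1 (-0.06). None of these passed the test. For fl/+ against +/+ effector cells the median was 0.11 with 74 of 80 above 0 and no member called, with none at an unadjusted p under 0.05 and none by DESeq2 or limma. The medians of numbers 1 and 2 were 0.11 and 0.23, whereas that of number 3 was -0.01 with 48 of 80 members lower in fl/+. Without fl/+ effector replicate 2 the overall median was 0.03. Of all genes, 49.5% were above 0, 0.00941% were called higher and 0 lower.

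In resting cells the members sat lower in fl/fl than in +/+, with a median of -0.12 and 79 of 80 below 0 against 50.6% of all genes. None was called by edgeR (0.546% of all genes were called higher and 0.151% lower). DESeq2 called 1, where it called 100 of all 10010 genes tested higher and 30 lower. At an unadjusted p under 0.05 there were 7 members, which are not calls. The count over all genes at that threshold is not given. The direction was not shared by all numbers. The median difference was -0.30 in the libraries of number 1 and -0.24 in those of number 2, but 0.15 in those of number 3, where 75 members were higher in fl/fl. The +/+ resting library of number 3 was also the one with the highest B cell marker sum; the part of that in the result was not tested. Without both resting libraries of number 3, chosen after seeing the data, 2 members were called lower at a median of -0.27. Leaving out +/+ resting replicate 3 or fl/fl resting replicate 1 alone gave 1. Over all genes, 21 of 10800 were called lower without both resting libraries of number 3. The count was 35 of 10940 without +/+ resting replicate 3 and 20 of 10752 without fl/fl resting replicate 1. The median was -0.22 without +/+ resting replicate 3 and -0.06 without +/+ resting replicate 2. The fl/+ resting libraries gave a median of -0.09 against +/+, no member called by edgeR or DESeq2 (2 at an unadjusted p under 0.05, with no count over all genes beside them), and the opposite sign in number 3 (0.12). There, 76 of 80 were below 0 against 51.7% of all genes, of which 0.0564% were called higher and 0.0282% lower. Without +/+ resting replicate 3, 1 member was called in that comparison and the median was -0.17. In that fit, 57 of all 10940 genes tested were called higher and 18 lower. Without +/+ resting replicate 2 the median was -0.02. Because both genotype comparisons of a state share the +/+ libraries, they are given side by side only.

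Rpl22l1 had the lowest value in that comparison, with 195, 147 and 160 CPM in fl/fl resting libraries against 241, 233 and 189 CPM in +/+ resting libraries. One fl/fl library lay above the lowest +/+ library. The log2 change was -0.40 (SE 0.11, edgeR adjusted p = 0.0957), and it passed the threshold with the replicate block (adjusted p = 0.0344) and with DESeq2 (0.0323). With the block, 144 of all 10630 genes were called higher and 35 lower, and with DESeq2 100 and 30 of 10010. Rpl22l1 was the 1 member called in each of these settings. Its paralog Rpl22, which is needed for development of alpha-beta T cells in mice, was at 393 ± 47.9 CPM in fl/fl and 434 ± 52.4 CPM in +/+ resting cells (SD, n = 3 each; adjusted p = 0.835). Further low values were those of Rps15a (-0.34), Rpl34 (-0.32), Rpl30 (-0.27) and Rpl36a (-0.23), and the highest were Rps2 (0.01), Rpl7l1 (-0.02), Rps3a1 (-0.04), Rpl18 (-0.05) and Rps24 (-0.05), all uncalled.

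**Figure D4:**
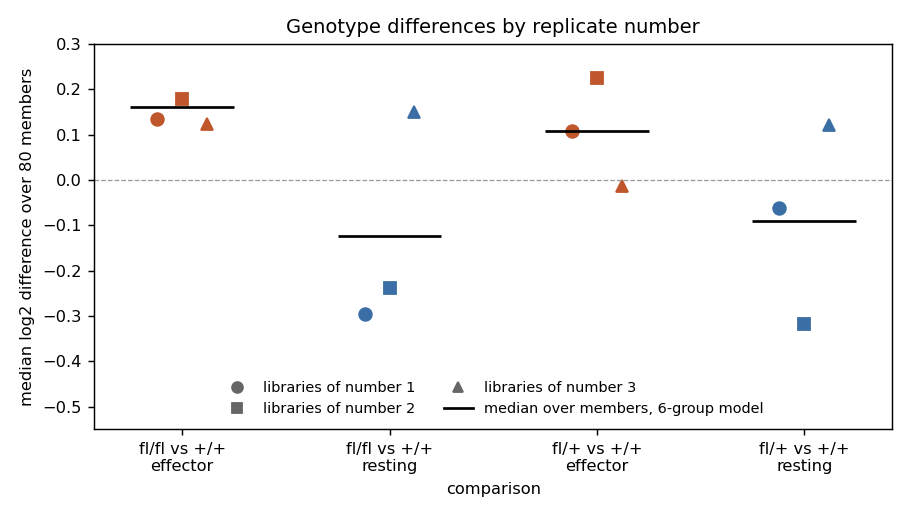
Median over the 80 tested members of the log2 difference between genotypes, for the libraries of each replicate number (points) and from the 6-group model (black lines). In effector cells the fl/fl points lie between 0.12 and 0.18, whereas in resting cells number 3 lies at 0.15 for fl/fl and 0.12 for fl/+, opposite to the other numbers. The fl/+ effector points run from -0.01 to 0.23.

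Some rows of the set cannot be read as the level of their gene, because reads from near-identical copies were divided by the authors' counting. Of the nonzero member values, 79.0% were not whole to within 0.005, against 29.4% over all genes. Rpl34 is the extreme. Its own row was at 5.63 to 19.4 CPM, since the row of Rpl34-ps1, annotated as a processed pseudogene on chromosome 6 (71124610 to 71124963, mm10), took 97.6 to 99.2% of their sum. With that row added, Rpl34 was lower in effector than in resting +/+ cells by 0.39 (edgeR adjusted p = 0.00699) where its own row gave -0.32 and no call (adjusted p = 0.58).

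Rps15a (chromosome 7, 118104372 to 118116188, mm10, minus strand), with a TOP motif at its start, shared counts with the processed pseudogenes Rps15a-ps6 (chromosome 11, 6172644 to 6173036) and Rps15a-ps4 (chromosome 4, 132219988 to 132220489). How the counts of these 3 rows were divided differed between some combinations of genotype and number but hardly between the states of one combination. The share on Rps15a-ps6 in effector libraries 1, 2 and 3 was 30.1, 15.4 and 44.2% in fl/fl, 45.2, 37.2 and 44.3% in fl/+, and 15.5, 15.5 and 43.7% in +/+. In the resting libraries of the same numbers it was 30.7, 15.5 and 44.6% in fl/fl, 46.2, 39.6 and 44.7% in fl/+, and 14.7, 14.7 and 43.3% in +/+. The share therefore ran from 14.7 to 46.2% over the 18 libraries, while the effector and resting libraries of one genotype and number differed by at most 2.44 percentage points.

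Rps15a's own row had 1010, 1425 and 859 CPM in fl/fl effector, 905, 1088 and 944 CPM in fl/+ effector, and 1203, 1368 and 861 CPM in +/+ effector libraries. The SD of the 3 rows together was smaller than that of the own row in these groups and in fl/fl and +/+ resting cells, but not in fl/+ resting cells, where the sum was at 1819 ± 122 CPM and the own row at 972 ± 13.5 CPM. In the effector groups the sum was at 1689 ± 162, 1790 ± 61.4 and 1675 ± 123 CPM in the same order (SD, n = 3 each), where the own row gave 1098 ± 293, 979 ± 96.4 and 1144 ± 259 CPM. In +/+ cells the sum changed by -0.35 between states (edgeR adjusted p = 0.0432), where the row alone was not called (-0.39, adjusted p = 0.269). With pseudogene rows added to their members, 62 members were called in +/+.

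**Figure D5:**
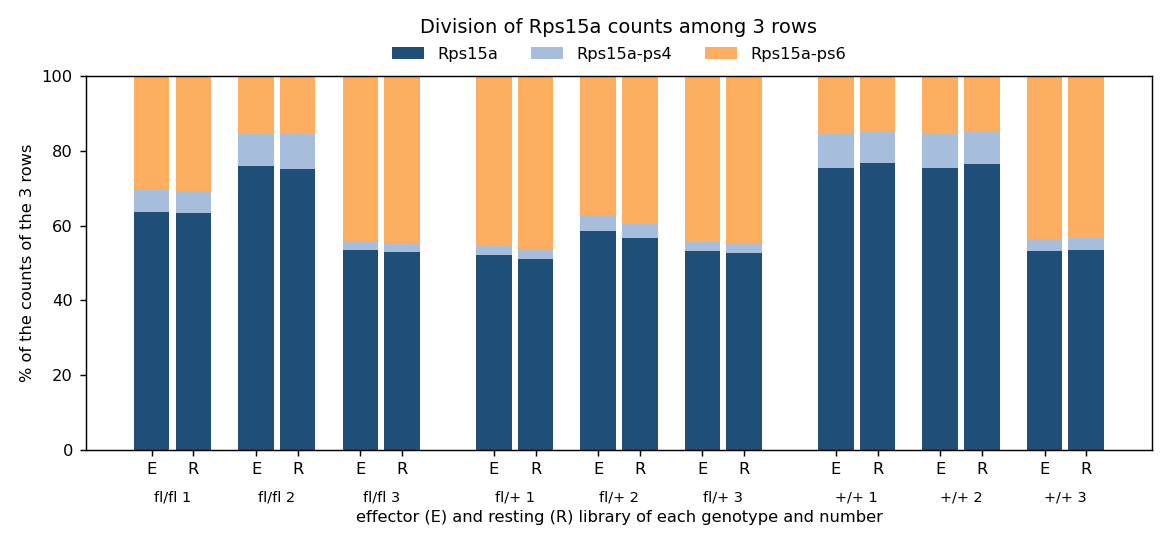
Percentage of the summed counts of Rps15a, Rps15a-ps4 and Rps15a-ps6 that each row received, in the effector (E) and the resting (R) library of each genotype and number. Neighbouring E and R bars nearly match, while the share on Rps15a-ps6 is 14.7 to 15.5% in 6 libraries (numbers 1 and 2 of +/+ and number 2 of fl/fl) and 30.1 to 46.2% in the others.

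Deviations between the libraries of a group, whatever their source, were uneven over the set. After removing each library's median member and each group's mean, the residual SD was 0.49 for Rpl34, 0.31 for Rps15a, 0.30 for Rpl30, 0.29 for Rpl26 and 0.26 for Rps27l on the log2(CPM + 1) scale, against a median of 0.08 over the 80 members. Over the 9 pairs of effector and resting libraries, these deviations had a Pearson r of 0.996 for Rps15a and 0.88 for Rps27l, but of 0.18 for Rpl34, 0.06 for Rpl30 and 0.02 for Rpl26. The points share genotype, number and, for the low rows, few counts, and the members were picked for their spread after it was seen. A change of Rpl34, Rpl30, Rpl26 or Rps15a is therefore uncertain in the comparisons above.

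Introns of ribosomal protein genes are a known home of small nucleolar RNAs, which guide the modification of ribosomal RNA. In the GENCODE annotation (vM21, mm10), 30 of the 83 members hold 58 such genes on their own strand. The 30 hosts had a median change between states in +/+ of -0.45 with 24 called lower, and the 50 tested members without one had a median of -0.44 with 36 called lower. Members with a TOP run at the annotated start, 13 of the tested ones, had a median of -0.44 with 9 called, and the 47 tested members whose promoters lack it had -0.43 with 35 called.

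Ribosomal proteins that the naming rule leaves out moved with the set in +/+. Gnb2l1, the small subunit scaffold RACK1 (-0.36), Fau, a fusion that yields a small subunit protein (-0.35), and Rpl36al (-0.28) fell in effector cells, and of the 4 tested genes of this kind all were called lower. None was called in fl/+ or fl/fl. Over all genes in +/+, 6.5% were called lower and 9.49% higher. The next list held 22 translation factors and other genes whose messages are known or reported to carry a TOP motif. Of these, 7 fell in +/+ and none rose, with a median of -0.21. They were Tpt1 (-0.46), the elongation factor subunits Eef1b2 (-0.45), Eef1g (-0.30) and Eef1a1 (-0.29), the initiation factors Eif4a2 (-0.32) and Eif3h (-0.30), and the nascent chain chaperone Naca (-0.31). Tpt1, one of the best studied TOP messages, had 3283, 3402 and 3663 CPM in effector libraries and 4712, 4970 and 4567 CPM in resting libraries of +/+, without overlap.

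In fl/+ Tpt1 fell (-0.34) and Nap1l1, a histone chaperone, rose (0.39), and in fl/fl Vim, encoding vimentin, rose (0.57). The median of the list was -0.04 in fl/+ and 0.04 in fl/fl. Of all genes, 6.58% were called lower and 9.72% higher in fl/+, and 1.33% and 5.01% in fl/fl. The calls of this list in fl/+ and fl/fl were near or below those shares. Of 15 initiation factors outside the TOP list, Eif2s2 was called lower in +/+ (-0.32), a share near the 6.5% of all genes, and none was called in fl/+ or fl/fl.

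Of 18 genes of the mTORC1 arm that acts on ribosomal protein synthesis, 1 was called higher in each genotype, 2 were called lower in +/+, and 0 lower in fl/fl or fl/+. The others, 17 in fl/fl, 17 in fl/+ and 15 in +/+, were uncalled, and over all genes 5.01% were called higher in fl/fl, 9.72% in fl/+ and 9.49% in +/+, where 6.5% were called lower. Eif4ebp1, encoding the repressor of the cap-binding protein eIF4E, rose in effector cells of every genotype, by 0.77 in fl/fl, 0.68 in fl/+ and 0.78 in +/+ on the log2 scale. It was at 17.6 ± 1.71 against 10.4 ± 1.30 CPM in fl/fl, at 18.4 ± 0.69 against 11.6 ± 1.07 CPM in fl/+, and at 21.8 ± 2.26 against 12.9 ± 2.83 CPM in +/+ (effector against resting, SD, n = 3 each). Larp1, whose product binds TOP messages, fell in +/+ by 0.60 (23.7 ± 1.09 against 36.0 ± 5.26 CPM), and Rps6kb1, encoding the S6 kinase that phosphorylates Rps6, fell by 0.37. Of 9 tested genes of ribosome rescue and surveillance, the splitting factor Abce1 (-0.47) and Ascc3, a helicase that acts on collided ribosomes (-0.39), fell in +/+, and Ascc3 fell in fl/+ (-0.40). In fl/fl none of these 9 was called. Of all genes, 6.5% were called lower in +/+ and 6.58% in fl/+.

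Other features of the libraries moved between the same groups. The summed level of 4 proliferation markers (Mki67, Top2a, Pcna and Mcm5) was 471 ± 38.9 against 156 ± 38.1 CPM in fl/fl, 361 ± 55.1 against 160 ± 12.3 CPM in fl/+ and 289 ± 87.6 against 176 ± 17.3 CPM in +/+ (effector against resting, SD, n = 3 each), with 4, 3 and 2 of the 4 called higher. That of 6 regulatory T cell markers was 1435 ± 228 against 1194 ± 83.8 CPM in fl/fl, 1909 ± 184 against 1401 ± 97.5 CPM in fl/+ and 2158 ± 331 against 1532 ± 181 CPM in +/+. Rn45s, the ribosomal RNA precursor row, took 10.9 to 16.4% of each library, and the share of ribosomal protein counts without that row was 12.7 ± 0.66% in +/+ effector and 16.1 ± 1.31% in +/+ resting cells. Over all genes, 5.01, 9.72 and 9.49% were called higher between states in fl/fl, fl/+ and +/+. Between genotypes, 3 of the 6 regulatory T cell markers were called lower in fl/fl than in +/+ effector cells, as were 1.65% of all genes. The 4 proliferation markers were all higher there without a call, where 51% of all genes were above 0. The part of these features in the ribosomal protein values was not tested.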

How the data were processed

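RNA-seq of 18 libraries was aligned and quantified by the submitters with STAR 2.6.0 and RSEM 1.2.8 against mm10, after bcl2fastq 2.17.1.14, per the submitters' processing notes; the annotation and strand setting used were not given in these sources. The authors deposited RSEM expected counts per gene symbol, which were rounded to whole numbers for testing, and FPKM, used here for levels per length and in alternatives on log2(FPKM + 1) or log2(FPKM + 0.1). Because RSEM divides reads among similar genes, members with near-identical copies are uncertain.

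The rounded counts went into edgeR 4.0.16 (R 4.3.3), with TMM scaling, filterByExpr by group (10630 genes kept), 1 model with 6 group means, and quasi-likelihood F tests. Calls needed an adjusted p (Benjamini-Hochberg, over all tested genes) under 0.05, and "rose" and "fell" are used for called genes. Intervals are 95% from the same fit. Counts of members at an unadjusted p under 0.05 are not calls. The count over all genes stands beside them for the fl/fl interaction alone. Library totals of 1658073 to 5756903 limit the rows with few counts. limma 3.58.1 and DESeq2 1.42.0 gave alternatives. The fitting was tested on simulated data. Within groups the libraries differed by more than counting error (chi-square per gene 3.43 to 6.93).

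The replicate number is called a batch in the labels and was tried as a block. In residuals of the 6-group model, the 9 effector and resting pairs of one genotype and number had a mean correlation of 0.21 (0.14 to 0.34), and 36 pairs of one number and different genotypes 0.07.

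Members and gene lists were chosen with earlier results of these data known. Members were named by a rule: called members (the 8 highest and 8 lowest where more than 16), stalk proteins, paralog pairs, the 5 highest and 5 lowest levels and changes, and members with roles outside the core. Rpl30, Rpl26 and Rps27l as spread-out rows, and the pseudogene rows, were named after their values were seen. Alternatives were another scaling, no filter, other tools, the block, pseudogene counts added, and leaving out libraries. Values of the targeted gene and of a few other genes are not reported here.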

Additional observations from a re-analysis of the deposited data

How the results depend on the processing

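Counts of called members depended on the setting more than their direction did: the median change kept its sign in every comparison and alternative run, and no called member reversed. In +/+ the count between states (60) was 53 to 68 over the settings (68 with the replicate block), except 38 with limma on unfiltered FPKM, and 39 to 69 when 1 library was left out; 32 of the 60 were called under all 17 alternatives other than the added ones. In fl/+ (17) it was 26 without the filter, 8 with library totals alone (1 higher, 7 lower), 9, 8 and 2 with limma at a pseudocount of 1, of 0.1 and without filter, 31 with the replicate block, 29 with the block of genotype and number, 29 without both libraries of number 2 (chosen, like the other leave-outs of 2 libraries, after seeing the data), and 2 to 19 with 1 library left out. The median there was -0.14 with library totals alone and -0.34 without number 2. In fl/fl (1) it was 0 with DESeq2's size factors, library totals alone, TMM without the members and each limma fit, 7 without the filter, 2 with DESeq2, 6 with either replicate block, and 0 to 5 with 1 library left out. For fl/fl against +/+ effector cells (0) it was 1 with library totals alone, 4 without the filter, 2 with DESeq2, 2 and 1 with limma, 2 with the replicate block and 0 to 6 with 1 left out. For resting cells (0) it was 1 without the filter, with DESeq2 or with the block, 2 without both libraries of number 3, and 0 to 1 with 1 left out. For fl/+ against +/+ resting cells (0) it was 1 without the filter and 0 to 1 with 1 left out. Leave-one-out medians ran from -0.52 to -0.36 in +/+, -0.29 to -0.18 in fl/+ and -0.20 to -0.07 in fl/fl between states, and between genotypes from 0.11 to 0.20 (effector) and -0.22 to -0.06 (resting) for fl/fl and from 0.03 to 0.16 and -0.17 to -0.02 for fl/+. The cause of these differences was not tested. Counts over all genes moved too. Between states, the replicate block gave 878 genes called lower in fl/+ and 240 in fl/fl, against 699 and 141 without it. For fl/fl against +/+ effector cells, 384 genes were called higher and 446 lower without the filter, against 124 and 175 with it. With library totals alone, 1286 of all genes were called higher and 461 lower in +/+, against 1009 and 691, and the all-gene median was at most 0.09.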
